A study of Mus musculus with 10 samples.

Results

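The genes described here are 38 genes of sugar breakdown and of the response to low oxygen, read in mouse KH2 embryonic stem cells that carry a doxycycline-inducible Sox17 transgene with a V5 tag. They comprise 17 enzymes of glycolysis and lactate formation and 21 other genes that the hypoxia-inducible factor (HIF) is known to activate or that control glucose use. Members were taken by gene symbol from the probe annotation of the Illumina bead array, which gave 51 probes for 33 of the 38 genes. The whole array holds 25697 probes for 16593 gene symbols. The array annotation used here has 0 probes under the symbols Gpi1, Eno1, Ldhb, Ankrd37 and Ero1l. Total RNA was measured on 10 arrays, of which 5 are labelled as uninduced KH2 cells carrying the transgene and 5 as the same cells induced with doxycycline for 48 h. Each array is called by its label and the number in its title (uninduced 1, induced 5). In both labels the numbering in the description field starts again at title 4, and here titles 1 to 3 are called run 1 and titles 4 and 5 run 2. Induced 1 is described apart, so that run 1 below stands for uninduced 1 to 3 with induced 2 and 3 unless said otherwise. Nothing in the labels tells separate cultures or clones from repeats, so p values measure the spread between these samples, which may be technical.

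Cells convert glucose to pyruvate through the glycolytic enzymes, and lactate dehydrogenase converts pyruvate to lactate. In oxygen, the prolyl hydroxylases encoded by Egln genes mark HIF-1 alpha for destruction through the von Hippel-Lindau protein. When oxygen is low the factor persists, pairs with its partner Arnt and binds short DNA elements, raising genes for glucose uptake, glycolysis, blood vessel growth and removal of mitochondria. Among its targets are Egln genes themselves, which closes a feedback loop. Mouse embryonic stem cells use glycolysis heavily.

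The labels did not by themselves divide the arrays. By the background pattern of chemosensory receptor probes, induced 2 to 5 formed a set of their own, and induced 1 lay with uninduced 1 to 5. These are called the second and the first array set. Sox17 itself read 30.5 to 32.6 on uninduced 1 to 3, 60.6 and 65.3 on uninduced 4 and 5, 67.3 on induced 1 and 11.99 to 16.6 on induced 2 to 5, so it was not higher under the induced label (log2 difference -0.66 ± 0.29, SE, limma adjusted p = 0.120, n = 5 each). A second Sox17 probe was too dim to be tested. It read 6.11 to 19.2 on uninduced 1 to 3, and 32.2 and 35.4 on uninduced 4 and 5. On induced 1 it read 42.9, and on induced 2 to 5 it read -2.30 to 4.74. Whether either probe also reads the transgene's RNA is not stated in the labels. Levels are given as intensities in arbitrary units. Differences are in log2 units after adding 16 to each intensity, and ± gives their standard error. Only probes above a background limit of 10.6 on at least 5 of the 10 arrays were tested. For counts, each gene was represented by its tested probe with the highest mean. Of the 33 members with a probe, 32 were tested, and the probe of Bnip3, a mitophagy receptor, lay under the limit on all 10 arrays.

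The clearest difference in these genes lay between the runs. On the 9 arrays without induced 1, with label in the model, 19 of the 32 tested members were lower in run 2 than in run 1 and 0 were higher (limma, adjusted over all 14985 tested probes). Of all 10087 tested genes, 8.16% were called lower and 6.96% higher. The median difference was -0.42 over the members and -0.01 over all tested genes. In 20 members every run 2 array lay below every run 1 array of the same label, an order found in 11.8% of all tested genes. The reverse order was found in 0 members and 10.3% of all tested genes. Of the 14 tested glycolytic enzymes 7 fell, with a median of -0.29, and of the 18 other tested members 12 fell, with a median of -0.43. In RNA from whole cultures, fewer cells of a type and less RNA per cell cannot be told apart.

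Cell type markers also moved with the runs. Summed intensity of 17 extraembryonic endoderm genes was 8227 to 8396 on uninduced 1 to 3, 18477 and 17170 on uninduced 4 and 5, 18238 on induced 1, 8414 and 8720 on induced 2 and 3 and 11919 and 12190 on induced 4 and 5. Of 15 tested, 6 rose in run 2 and 3 fell, and Thbd was under the limit on every array. The risers were Col4a1, Col4a2, Lama1, Lamc1, Gata6 and Pdgfra. The largest rise was in the collagen gene Col4a1, at 467 to 502 on uninduced 1 to 3 and 3934 and 3456 on uninduced 4 and 5. The falls were Krt18 (-0.93 ± 0.09), Krt8 (-0.88 ± 0.10) and Amn (-0.35 ± 0.09). Dab2, Gata4, Hnf4a, Lamb1, Sox7 and Sparc were not called. A sum gives most weight to bright genes, here Lamc1, Lama1 and Col4a1 among others. The 10 embryonic stem cell genes summed to 52712 to 58592 over all arrays, with 1 riser (Pou5f1) and 1 fall (Tdgf1). Dppa5a alone read 19276 to 23237, so this sum says little of the dimmer genes. A second probe of Pou5f1 was not called (0.23 ± 0.08), and a second probe of Tdgf1 fell too (-0.85 ± 0.11). Fibroblast genes summed to 335 to 348 on uninduced 1 to 3 and 142 to 224 on every other array, with Col3a1, Lum and Postn under the limit on every array. Thy1 by itself read 267 to 277 on uninduced 1 to 3, so this sum says little of the dimmer genes. Of 4 tested, Thy1 alone was called between the runs, and it fell. Endothelial genes summed to 329 to 358 on uninduced 1 to 3, 465 to 501 on uninduced 4, uninduced 5 and induced 1, and 321 to 355 on induced 2 to 5. Cdh5 and Emcn were under the limit on every array, and 0 of 3 tested genes were called between the runs. A second, dimmer probe of Pecam1 was called higher in run 2 (0.37 ± 0.10). The part of these cell types in the falls below was not tested.

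**Figure D1:**
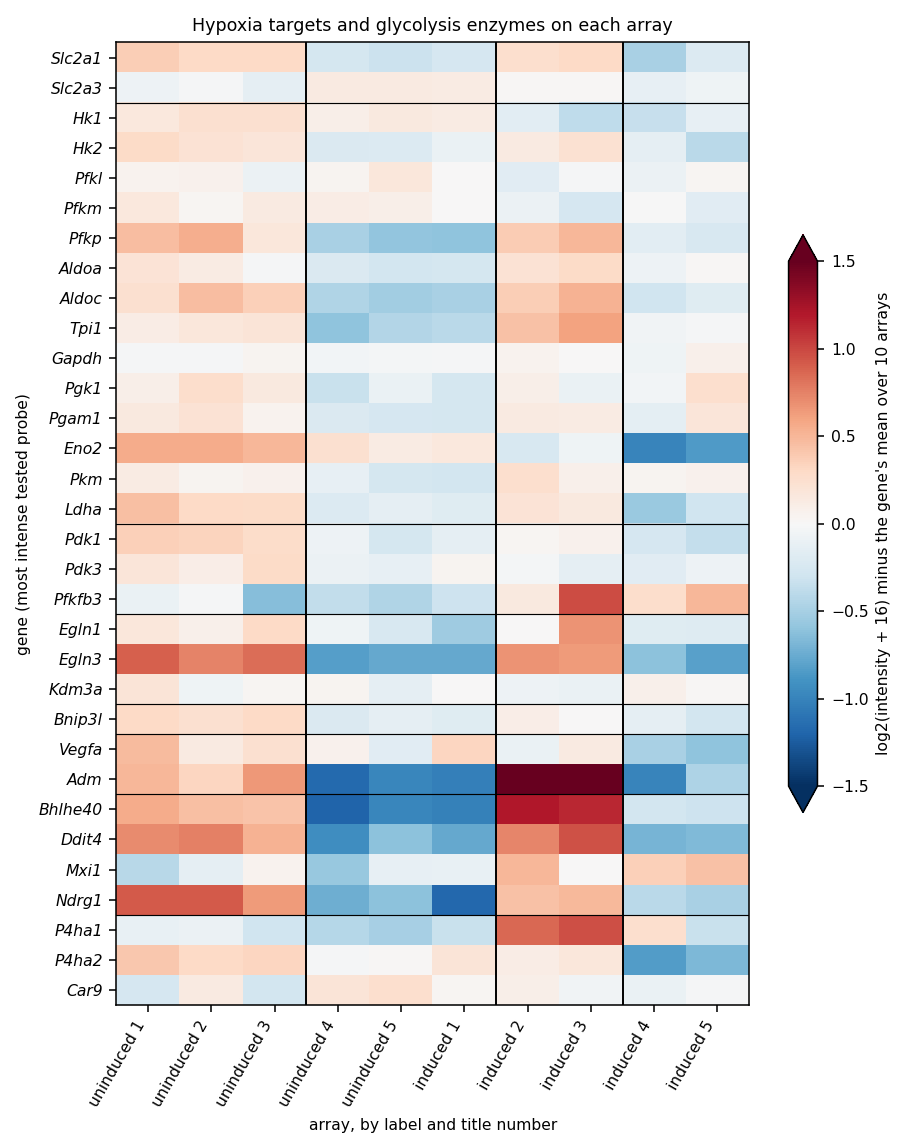
Heat map of the 32 tested members (rows, by role, separated by thin lines) on the 10 arrays (columns, separated by vertical lines into uninduced 1 to 3, uninduced 4 and 5 with induced 1, induced 2 and 3, and induced 4 and 5). Colour gives log2(intensity + 16) minus the gene's mean over the 10 arrays, and values past ±1.5 take the end colour. Adm, Bhlhe40, Egln3, Ddit4 and Ndrg1 are above their mean on uninduced 1 to 3 and induced 2 and 3 and below it on the other 5 arrays.

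The core of the HIF binding element is a short sequence, and the promoters of members were searched for it on both strands, as ACGTG or its reverse complement CACGT, and for a variant, GCGTG or CACGC. Windows ran from 250 bases before to 50 bases after each annotated start in RefSeq (mouse build GRCm38.p6), and 33 of the 38 genes had 51 windows. Slc2a3, Bnip3l, Bhlhe40, Ndrg1 and Ero1l were not among them. ACGTG or CACGT was found in 52.9% of the member windows, 25.2% of the 10497 windows of other genes tested on the arrays and 19.6% of all 32851 windows. GCGTG or CACGC was found in 54.9%, 49.2% and 32.4%. Both patterns can occur at one place, and ACGTG and CACGT overlap in CACGTG. Median GC content was 62.0% in member windows, 60.3% in the other tested genes and 52.7% in all windows, and its part in these shares was not tested. Members that fell in run 2 held ACGTG or CACGT in 54.5% of their 22 windows. A match is a description of the letters and not a binding site.

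The 250 bases before the start follow for 6 members, in the gene's direction, with matches in capitals. Adm, Egln3 and Ddit4 are shown as the members with a match that fell most in run 2, and Gapdh, Slc2a1 and Pkm as the members with a match and the highest intensities.
Adm (chr7:110627407-110627656, plus strand): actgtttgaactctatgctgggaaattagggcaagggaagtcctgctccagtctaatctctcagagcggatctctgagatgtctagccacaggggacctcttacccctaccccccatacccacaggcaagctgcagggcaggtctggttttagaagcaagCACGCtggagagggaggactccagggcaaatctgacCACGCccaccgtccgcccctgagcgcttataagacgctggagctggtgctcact
Egln3 (chr12:54203875-54204124, minus strand): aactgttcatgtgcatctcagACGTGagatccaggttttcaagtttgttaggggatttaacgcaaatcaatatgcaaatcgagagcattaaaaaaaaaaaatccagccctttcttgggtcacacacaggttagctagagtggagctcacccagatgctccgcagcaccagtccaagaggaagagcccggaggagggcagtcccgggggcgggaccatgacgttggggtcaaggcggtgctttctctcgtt
Ddit4 (chr10:59951771-59952020, minus strand): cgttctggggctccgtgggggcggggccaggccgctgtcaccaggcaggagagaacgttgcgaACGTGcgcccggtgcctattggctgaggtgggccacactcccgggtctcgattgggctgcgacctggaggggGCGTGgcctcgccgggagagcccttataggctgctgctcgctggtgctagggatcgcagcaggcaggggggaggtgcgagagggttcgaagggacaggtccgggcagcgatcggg
Gapdh (chr6:125165774-125166023, minus strand): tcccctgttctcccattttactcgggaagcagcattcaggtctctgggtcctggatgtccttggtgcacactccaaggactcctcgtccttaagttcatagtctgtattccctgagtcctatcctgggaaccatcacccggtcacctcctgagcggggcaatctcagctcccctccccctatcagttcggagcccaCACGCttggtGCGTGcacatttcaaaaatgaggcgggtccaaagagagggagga
Slc2a1 (chr4:119108495-119108744, plus strand): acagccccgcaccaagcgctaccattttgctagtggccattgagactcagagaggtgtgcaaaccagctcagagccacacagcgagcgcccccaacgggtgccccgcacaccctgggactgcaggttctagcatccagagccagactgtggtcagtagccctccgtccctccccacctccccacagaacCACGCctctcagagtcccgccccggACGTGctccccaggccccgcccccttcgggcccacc
Pkm (chr9:59656977-59657226, plus strand): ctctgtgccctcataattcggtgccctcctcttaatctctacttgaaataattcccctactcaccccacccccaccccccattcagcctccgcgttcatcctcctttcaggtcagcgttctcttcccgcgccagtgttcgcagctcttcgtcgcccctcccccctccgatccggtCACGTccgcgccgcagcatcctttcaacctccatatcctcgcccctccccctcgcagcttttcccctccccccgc
The Egln3 stretch holds 1 ACGTG, and that of Ddit4 holds 1 ACGTG and 1 GCGTG. That of Adm holds 2 CACGC and 0 ACGTG or CACGT. That of Gapdh holds 2 matches of the variant, that of Slc2a1 holds 1 match of each pattern, and that of Pkm holds 1 CACGT.

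Adm encodes adrenomedullin, a secreted peptide that widens blood vessels. Its probe read 38.8, 32.5 and 44.6 on uninduced 1 to 3, 1.22 and 3.59 on uninduced 4 and 5, and 3.04 on induced 1. On induced 2 and 3 it read 101 and 97.8, and on induced 4 and 5 it read 3.47 and 12.0. All 5 run 1 arrays in the fit were above the limit, and 3 of the 4 run 2 arrays were under it, so run 1 was at least 5.65-fold higher (values raised to the limit, averaged over both labels). With run 2 means raised to the limit, the ratio was at least 3.64 for the uninduced and 9.38 for the induced label. The fitted difference was -1.90 ± 0.16 (adjusted p = 3.34e-05), a size that depends on the floor at 0 and the 16 added.

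Egln3 encodes an oxygen-sensing prolyl hydroxylase that is itself a HIF target. It read 758, 680 and 728 on uninduced 1 to 3 and 218 and 229 on uninduced 4 and 5. It read 228 on induced 1, 648 and 633 on induced 2 and 3, and 256 and 221 on induced 4 and 5. Induced 1 lay within the run 2 values. Without it the runs did not overlap, and run 1 was 3.23-fold run 2 under the uninduced label and 2.68-fold under the induced label. The difference was -1.51 ± 0.08 (adjusted p = 1.39e-06), and a dim second probe fell too (-0.66). Egln1, the main oxygen sensor of the family, was near background at 25.5 to 79.4 and fell by 0.42 ± 0.12 (adjusted p = 0.0490). Its other probes fell by 0.51 and 0.57. The call of the first probe was lost in 15 of the 19 other settings tried, among them leaving out any 1 array other than induced 2. Kdm3a, a histone demethylase gene and HIF target, did not pass the test (0.01 ± 0.08), nor did either of its other 2 probes.

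Bhlhe40, a repressor of transcription that HIF induces, read 1130, 1048 and 1036 on uninduced 1 to 3 and 323 and 381 on uninduced 4 and 5. It read 371 on induced 1, 1779 and 1687 on induced 2 and 3, and 627 and 611 on induced 4 and 5. Induced 1 lay below induced 4 and 5. Without it run 1 lay above run 2 within each label, and induced 2 to 5 lay above the uninduced arrays of the same run. The run difference was -1.52 ± 0.07 (adjusted p = 6.21e-07).

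Ddit4, an inhibitor of mTORC1 signalling that rises in stress and low oxygen, read 1422, 1473 and 1254 on uninduced 1 to 3 and 449 and 560 on uninduced 4 and 5. It read 503 on induced 1, 1450 and 1703 on induced 2 and 3, and 528 and 543 on induced 4 and 5. The difference was -1.47 ± 0.09 (adjusted p = 3.66e-06), and run 1 lay above run 2 under both labels when induced 1 was left out. Ndrg1, a stress-responsive gene of differentiation, fell by 1.23 ± 0.12. Its probe read 90.4 to 113 on uninduced 1 to 3, 25.0 and 28.4 on uninduced 4 and 5, 14.1 on induced 1, 76.3 and 79.6 on induced 2 and 3, and 35.4 and 32.7 on induced 4 and 5. A second Ndrg1 probe fell by 1.32 ± 0.08. Mxi1, an antagonist of Myc, did not pass the test (-0.03 ± 0.14).

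**Figure D2:**
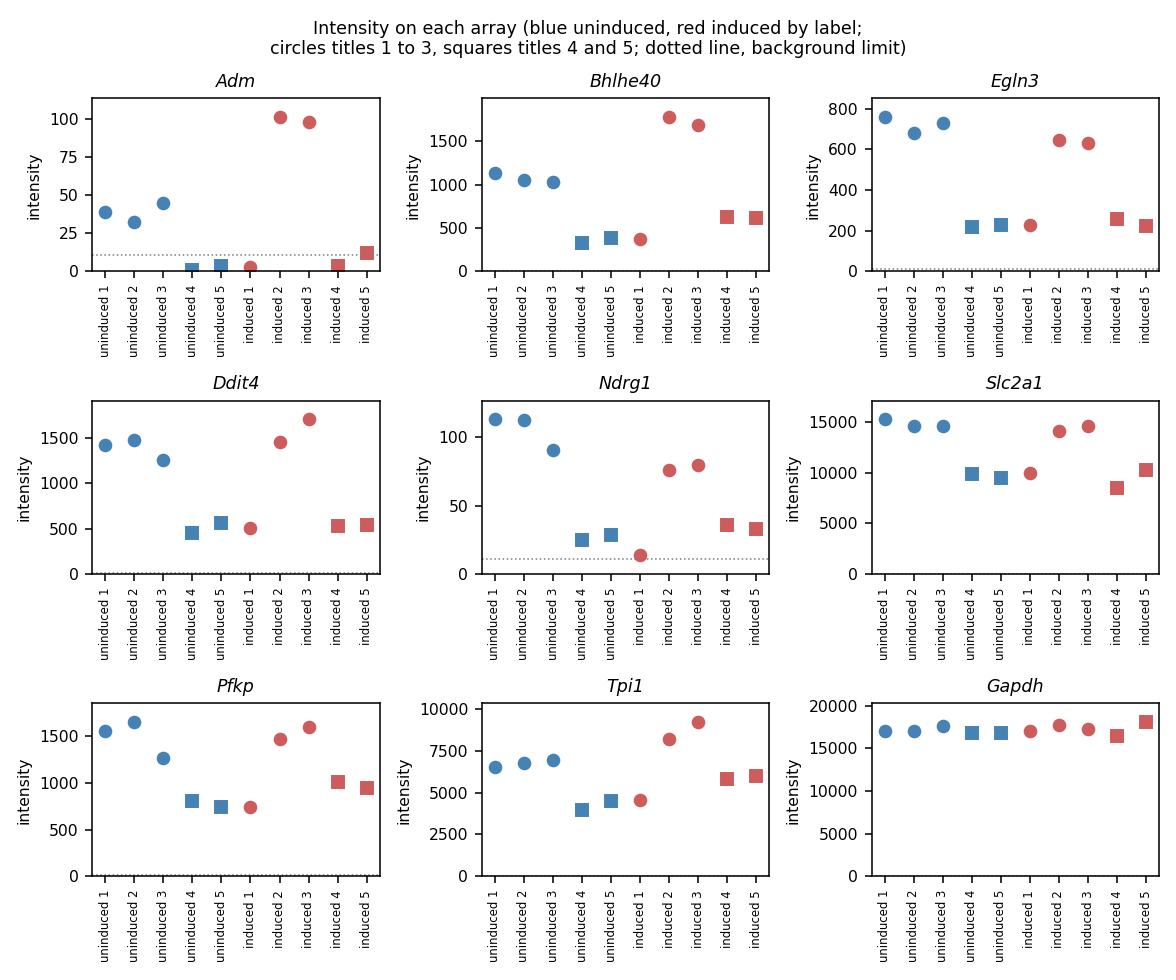
Intensity of 9 members on each of the 10 arrays, on linear axes from 0, with blue for the uninduced and red for the induced label, circles for titles 1 to 3 and squares for titles 4 and 5. Each panel has its own scale, and the dotted line is the background limit. The circles lie above the squares within each label in every panel except Gapdh, apart from induced 1, which lies with the squares of the uninduced label.

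Vegfa, the growth factor of blood vessels, read 955, 751 and 808 on uninduced 1 to 3, 713 and 605 on uninduced 4 and 5, 860 on induced 1, 637 and 751 on induced 2 and 3, and 482 and 444 on induced 4 and 5. The difference was -0.44 ± 0.10 (adjusted p = 0.0138), and a second tested probe fell by 0.32. Induced 1 lay within the range of uninduced 1 to 3 here. P4ha1 and P4ha2 encode catalytic subunits of the prolyl hydroxylase that collagen needs to fold, and they differed by -0.60 ± 0.15 and -0.59 ± 0.11. P4ha1 read 148 and 161 on induced 2 and 3, 91.0 and 55.6 on induced 4 and 5 and 47.9 to 69.0 on the other 6 arrays. P4ha2 read 180 to 196 on uninduced 1 to 3 and 143 and 145 on uninduced 4 and 5. It read 167 on induced 1, 156 and 163 on induced 2 and 3, and 73.7 and 84.3 on induced 4 and 5. The P4ha1 call was lost without induced 2 and without induced 3. Bnip3l, a receptor that marks mitochondria for removal, read 2719 to 2850 on uninduced 1 to 3, 1978 and 2093 on uninduced 4 and 5 and 2038 on induced 1. It read 2470 and 2322 on induced 2 and 3 and 2103 and 1902 on induced 4 and 5, a difference of -0.37 ± 0.07. Car9, a carbonic anhydrase that is a widely used hypoxia marker, stayed near background at 12.4 to 24.7 (0.16 ± 0.11, adjusted p = 0.420), and its other 2 probes were too dim to be tested.

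Of the glucose transporters, Slc2a1 fell and Slc2a3 did not pass the test. Slc2a1 read 14598 to 15287 on uninduced 1 to 3, 9837 and 9471 on uninduced 4 and 5, 9977 on induced 1, 14120 and 14598 on induced 2 and 3, and 8483 and 10276 on induced 4 and 5. Run 1 was 1.54-fold run 2 under the uninduced label and 1.53-fold under the induced label, a difference of -0.62 ± 0.07 (adjusted p = 0.000267). Slc2a3 read 12180 to 14598 over all arrays (0.06 ± 0.08), and uninduced 4, uninduced 5 and induced 1 were its highest. Some values recur exactly on several arrays, as they do where arrays are normalized to a shared distribution.

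The first steps of glycolysis were unequal between isoforms. Hk2, a hexokinase that traps glucose in the cell, read 8056 to 8653 on uninduced 1 to 3, 6101 and 6127 on uninduced 4 and 5, 7797 and 8325 on induced 2 and 3, and 6434 and 5334 on induced 4 and 5, a difference of -0.45 ± 0.07. Hk1, the other hexokinase measured, differed by -0.04 ± 0.08. Among the 3 phosphofructokinase genes, which set the committed step, Pfkp alone was called. It read 1560, 1653 and 1265 on uninduced 1 to 3, 801 and 741 on uninduced 4 and 5, 737 on induced 1, 1474 and 1599 on induced 2 and 3, and 1005 and 947 on induced 4 and 5 (-0.80 ± 0.10, adjusted p = 0.000374). A second Pfkp probe fell by 0.92. Pfkl stood at 0.08 ± 0.07 and Pfkm at 0.03 ± 0.07, and no other tested probe of either gene was called.

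Of the aldolases, which split the six-carbon sugar, Aldoc read 448 to 526 on uninduced 1 to 3 and 272 and 258 on uninduced 4 and 5, with 493 and 551 on induced 2 and 3 and 304 and 333 on induced 4 and 5 (-0.77 ± 0.08). Aldoa fell by less, with a difference of -0.32 ± 0.07. Tpi1, triosephosphate isomerase, read 6542 to 6954 on uninduced 1 to 3, 3972 and 4477 on uninduced 4 and 5 and 4589 on induced 1. On induced 2 and 3 it read 8232 and 9242, and on induced 4 and 5 it read 5849 and 5980 (-0.62 ± 0.07, adjusted p = 0.000235). Its other 2 probes fell by 0.51 and 0.64.

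Among the later enzymes Eno2 and Ldha fell. Gapdh, the dehydrogenase often used as a reference gene, read 16473 to 18120 over all arrays (-0.03 ± 0.06, adjusted p = 0.810), and a second probe stood at -0.00. Pgk1 (-0.16 ± 0.12), Pgam1 (-0.26 ± 0.09) and Pkm (-0.20 ± 0.07) did not pass the test. The Pgk1 probe was much dimmer, at 88.4 to 142, than those of Pgam1 (1789 to 2503) and Pkm (9419 to 13663). Pkm was lower on every run 2 array than on every run 1 array of its label when induced 1, at 9419, was left out. Eno2, an enolase, fell by 0.55 ± 0.09, from 241 to 253 on uninduced 1 to 3 to 198 and 183 on uninduced 4 and 5, and from 139 and 158 on induced 2 and 3 to 75.6 and 85.2 on induced 4 and 5. Ldha, the lactate dehydrogenase subunit that HIF induces, read 15078, 13597 and 13466 on uninduced 1 to 3 and 9566 and 10026 on uninduced 4 and 5. It read 9720 on induced 1, 12728 and 12266 on induced 2 and 3 and 7538 and 8961 on induced 4 and 5 (-0.56 ± 0.07, adjusted p = 0.000727).

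Of the regulators of flux, Pdk1, a kinase that keeps pyruvate out of the mitochondrion, read 2415 to 2571 on uninduced 1 to 3, 1901 and 1670 on uninduced 4 and 5, 2047 and 2098 on induced 2 and 3, and 1681 and 1564 on induced 4 and 5. The difference was -0.42 ± 0.07 (adjusted p = 0.00243). Pdk3, a kinase of the same family, stood at -0.18 ± 0.08 and Pfkfb3, which makes an activator of phosphofructokinase, at -0.17 ± 0.17, and neither passed the test. Pfkfb3 was dim, at 4.14 to 15.0 on the uninduced label.

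**Figure D3:**
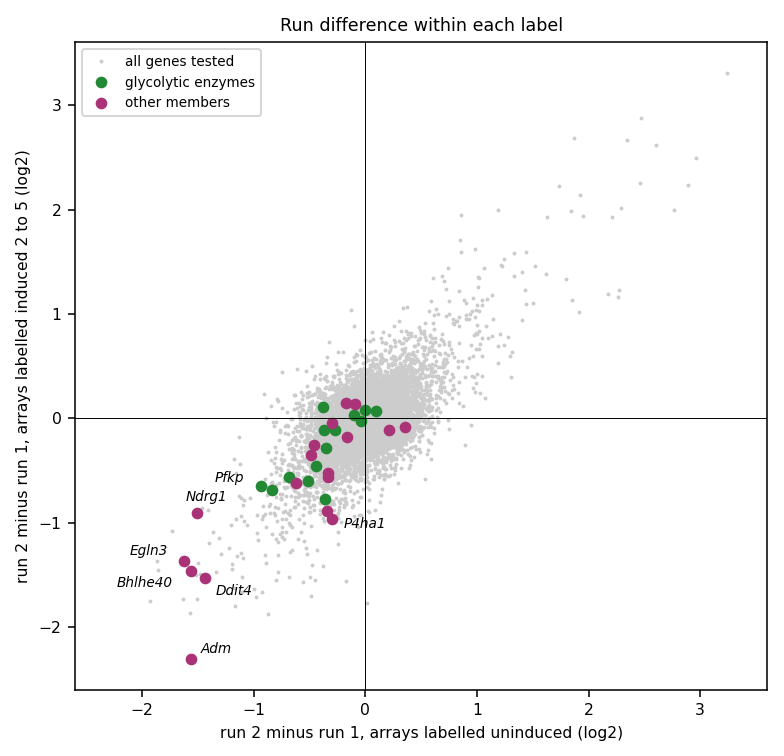
Run 2 minus run 1 (log2) within the arrays labelled uninduced (x axis, 3 against 2 arrays) and within induced 2 to 5 (y axis, 2 against 2), for all 10087 tested genes in grey, glycolytic enzymes in green and other members in purple. Adm, Bhlhe40, Egln3, Ddit4 and Ndrg1 lie at -0.91 or lower on both axes.

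The run difference was also read within each label. The 19 members were picked by the fit to these same arrays, so this is no independent check. Arrays labelled uninduced alone called 14 of the 19 members lower, beside 1137 of all 14985 tested probes in either direction. Aldoa, Egln1, Vegfa, P4ha1 and P4ha2 were not called. Induced 2 to 5 alone, with 2 arrays in each run, called 9 of the 19, beside 574 probes. All 19 had the same sign in both, which that choice of members favours. For a run difference that is unequal between the labels, limma called 0 of the 32 members and 0.0198% of all tested genes. At an unadjusted p under 0.05 there were 8 members and 1204 of all 10087 tested genes. P4ha1 was lower by 0.30 under the uninduced and by 0.96 under the induced label, and Ndrg1 was 3.95-fold and 2.29-fold higher in run 1, differences that were not called.

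Induced 1 entered none of these fits. By title it belongs to run 1, yet in 17 of the 19 fallen members it lay nearer the mean of uninduced 4 and 5 than that of uninduced 1 to 3. The exceptions were Vegfa and P4ha2. The same held for 84.9% of all genes that fell in run 2 and 61.8% of all tested genes. With induced 1 included as titled, limma called 9 members lower: Slc2a1, Hk2, Eno2, Ldha, Pdk1, Egln3, Vegfa, Ddit4 and P4ha2. All 19 kept their sign in that fit.

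Further genes of the pathway were read from 5 lists, which were chosen with earlier results of these data known. Of 21 tested HIF targets that are not members, 12 were lower in run 2 and 1 was higher, with a median of -0.37. Of all tested genes 8.16% were called lower and 6.96% higher. Loxl2, a lysyl oxidase, read 162, 108 and 137 on uninduced 1 to 3, 46.1 and 52.8 on uninduced 4 and 5, 105 and 114 on induced 2 and 3 and 31.1 and 31.8 on induced 4 and 5 (-1.29 ± 0.10). The lactate exporter Slc16a3 fell by 0.95 ± 0.09 on its brighter probe, while a dim second probe stood at 0.03. Falls were also found in Pgm1, a phosphoglucomutase (-0.76 ± 0.07), and the lipid droplet gene Hilpda (-0.45 ± 0.07). Ier3 differed by -1.04 ± 0.21, with 1700 and 1714 on induced 2 and 3 and 225 to 524 on the other 8 arrays. The riser was Wsb1 (0.23 ± 0.07).

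Of 10 tested genes of the HIF machinery itself, 0 were lower in run 2 and 2 were higher, Cited2, a competitor of HIF for its coactivator (0.56 ± 0.07), and Cul2, a scaffold of the ubiquitin ligase that acts on HIF (0.43 ± 0.12, with a second probe at 0.13 not called). Hif1a, the oxygen-regulated subunit, differed by -0.01 ± 0.07, Arnt by -0.17 ± 0.08 and Vhl by -0.05 ± 0.13. Of 6 tested isoforms of other glycolytic genes, Eno3 fell (-0.46 ± 0.09) and Pgam2 (0.62 ± 0.10), Ldhd and Pfkfb2 rose. In the pentose phosphate list 0 of 5 tested genes were called. In the list for pyruvate entry into mitochondria 1 of 9 was called, a rise of Pdk4 (0.49 ± 0.12). Beside these counts, 15.1% of all tested genes were called between the runs, 8.16% lower and 6.96% higher.

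**Figure D4:**
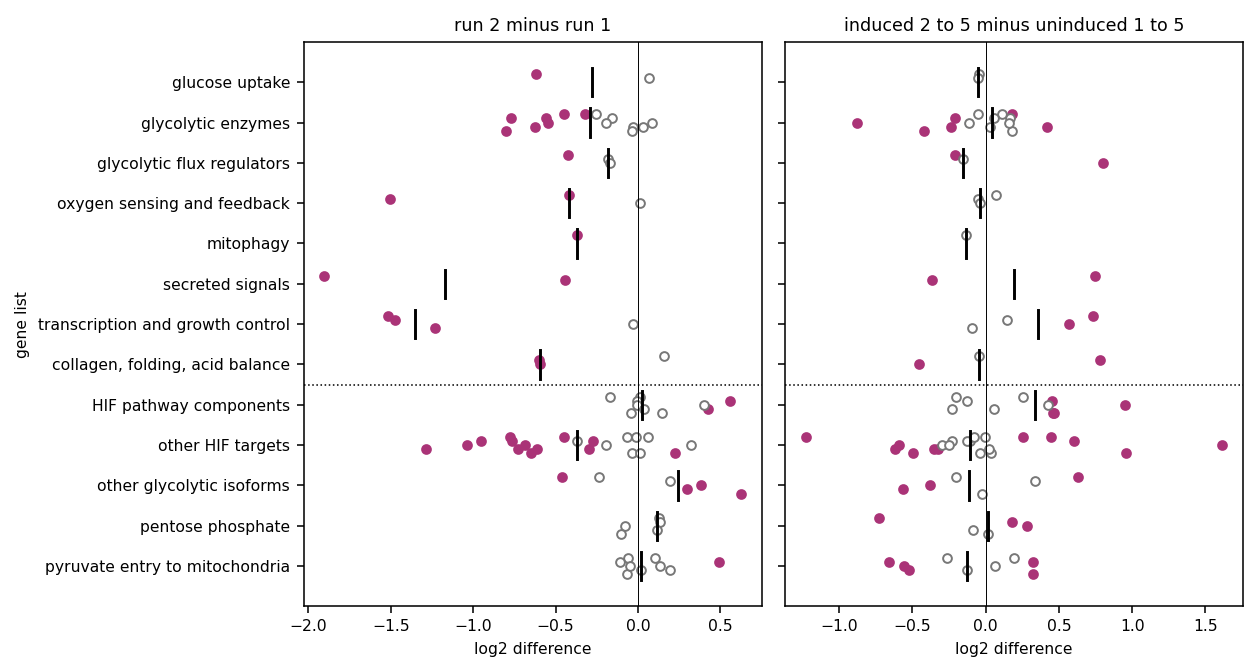
Log2 differences of the tested genes of each list between runs (left, run 2 minus run 1) and between induced 2 to 5 and uninduced 1 to 5 (right), 1 point per gene, with filled points passing the test and a bar at the list's median. Lists above the dotted line are members. Between runs 0 of the 19 called members lie right of 0, whereas on the right 7 called members lie on each side.

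Between induced 2 to 5 and uninduced 1 to 5, where label and array set cannot be told apart, members moved both ways. With run in the model, 7 of the 32 members were higher and 7 lower on induced 2 to 5, 14 in all, beside 24.6%, 29.3% and 53.9% of all tested genes. The median was -0.04 over members and -0.02 over all tested genes. The higher members were Bhlhe40 (0.73 ± 0.07), Adm (0.75 ± 0.16), P4ha1 (0.78 ± 0.15), Pfkfb3 (0.80 ± 0.17), Mxi1 (0.57 ± 0.14), Tpi1 (0.42 ± 0.07) and Aldoa (0.18 ± 0.07). Adm read 101 and 97.8 against 32.5 to 44.6 in run 1, and 3.47 and 12.0 against 1.22 and 3.59 in run 2. The lower members were Eno2 (-0.88 ± 0.09), P4ha2 (-0.45 ± 0.11), Hk1 (-0.42 ± 0.08), Vegfa (-0.37 ± 0.10), Pfkm (-0.24 ± 0.07), Pdk1 (-0.21 ± 0.07) and Ldha (-0.21 ± 0.07). Probes of the same gene differed in their call for 5 members. The dim probe of Pfkl was higher by 0.91 and its bright probe stood at -0.12, and for Ndrg1 the second probe was lower (-0.51) and the first was not called (-0.09). For Kdm3a 1 of 3 probes was higher (0.25), for Pfkm 2 of 3 were lower, and for Tpi1 2 of 3 were higher. Without induced 3 the lower members numbered 4. Hif1a was higher (0.45 ± 0.07), at 298 to 315 on induced 2 to 5 and 205 to 236 on the other 6 arrays.

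The labels were compared over all 10 arrays to ask what changes with 48 h of induction. Sox17 was not higher on the arrays labelled induced, and induced 1 lay with the uninduced arrays. The labels may be wrong, or the Sox17 probes may not read the transgene, and these cannot be told apart here. Directions here and in the array set comparison are between arrays so labelled. Of the 32 members 1 was higher and 2 lower, 3 in all, beside 8.5%, 11% and 19.5% of all tested genes. Eno2 fell from 225 ± 32.7 to 129 ± 47.7 (SD, n = 5 each), a difference of -0.79 ± 0.21 (adjusted p = 0.0299), with 187 on induced 1 inside the range of the uninduced label. Hk1 differed by -0.35 ± 0.10 (adjusted p = 0.0366) and Mxi1 by 0.48 ± 0.15 (adjusted p = 0.0476). Leaving out induced 1 kept all 3 calls, and leaving out any 1 of the other 9 arrays kept 0 or 1. A fit that held array set constant could not test the label over all arrays. All arrays of the second set are labelled induced, so that fit compares induced 1 alone with uninduced 1 to 5. Adm (0.27 ± 0.59), Bhlhe40 (0.29 ± 0.49), Ddit4 (-0.17 ± 0.44), Ndrg1 (-0.46 ± 0.41) and Egln3 (-0.35 ± 0.44) had large errors in this comparison, and both labels hold arrays of both levels.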

How the data were processed

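The authors' deposited table gives 1 intensity per probe and array for 10 arrays, on a linear scale. Background subtraction and normalization between arrays are inferred from these deposited intensities, of which 25.5% lie below 0 and whose upper quartile is 250.0 on every array. The sources used here name no software for these steps. A second deposited table has 20 columns of non-normalized signals and detection p-values under names that match no label and was not used, so limma on the normalized intensities replaced the planned neqc.

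Negative intensities were raised to 0 before 16 was added, and the sum was put on a log2 scale. The background limit is the 95th percentile of a normal curve with the SD of mirrored negative values (6.45). It kept 14985 probes for 10087 genes. Symbols are those of the platform annotation, in which 23978 of 25697 probes carry 1 symbol, 0 several and 1719 none. Tests used limma 3.58.1 in R 4.3.3 (lmFit, eBayes, two-sided) with Benjamini-Hochberg adjustment over all tested probes and a threshold of 0.05. The run and array set fits used 9 arrays, without induced 1, with terms for label and run. Array sets came from the largest gap on the first principal component of 1357 chemosensory receptor probes. All fits were tried on simulated data with known changes. Recovery of large changes was required of the label, array set and run fits, but not of the fit for unequal run differences. Every tested member is named, and those called in a comparison are given with their values. Alternatives changed the offset, the floor, normalization, filter, array weights, samples and blocks. The number of arrays limits the precision. Members and lists were chosen with earlier results of these data known. Figures used matplotlib 3.10.9 (Python 3.11.15).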

Additional observations from a re-analysis of the deposited data

How the results depend on the processing

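In the run comparison all 19 members that fell kept their sign under every alternative tried, and with each array left out in turn 17 to 19 members were called lower (1576 to 1802 probes, beside 2092). Fewer arrays or other terms gave 749 probes with all 10 arrays and induced 1 as titled, 1137 on the uninduced label alone and 574 on induced 2 to 5 alone, with 9 members lower on all 10 arrays and 9 on induced 2 to 5 alone. With the description number as a replicate block 1094 probes and 17 members were called, P4ha1 and Egln1 being lost. In the array set comparison leaving out 1 array gave 7048 to 7685 probes, 6 to 7 higher members and 4 to 7 lower. For a run difference that is unequal between labels, 2 probes were called, 17 with values kept below 0 and 32 added, 16 with 32 added, 36 without the filter, 9 with the stricter limit and 0 to 2 with 1 array left out, with 0 members in each.

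The label comparison depended most on the settings. It called 2919 probes, 1 higher member and 2 lower, and leaving out 1 array gave 14 to 6821 probes, 0 to 3 higher members and 0 to 3 lower. It gave 549 probes and 0 members without the filter, and 7313 probes with 3 higher and 5 lower members with array weights. In run 1 alone, here with induced 1 included as titled, it gave 0 probes and 0 members. In run 2 alone it gave 4400 probes with 4 higher and 3 lower members. With the array set as a block the label rests on induced 1 alone against uninduced 1 to 5, so no count is given. Cyclic loess left 0 higher members. The title number does not pair the arrays (correlation of deviations -0.06 for title 1 and 0.29 to 0.31 for the others), and with it as a replicate block 3344 probes, 1 higher and 3 lower members were called. The description number does not pair them either (-0.17 to 0.04). Apart from fewer samples or probes where these apply, the cause was not tested. Dim probes such as those of Adm, Egln1, Pfkfb3 and Car9 are limited by signal over background.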
